A study of Mus musculus with 8 samples.

Results

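The 36 genes described here encode the enzymes and transporters that carry glucose through glycolysis, pass pyruvate to lactate or to the mitochondrion, and divert sugar phosphates into the pentose phosphate pathway. They were taken from a list of gene symbols, which was chosen with earlier results of these data known. All 36 symbols were found among the 17812 gene identifiers of the deposited tables. The cells were E14TG2a, a feeder-free mouse embryonic stem (ES) cell line of strain 129/Ola. Unedited cells (WT) were set beside cells in which 1 of 3 enhancers, called E1, E2 or E3, had been removed with CRISPR/Cas9 (E1-KO, E2-KO and E3-KO), with 2 samples in each of the 4 groups. The series design names promoter-enhancer contacts of Sox2, a transcription factor gene of pluripotent cells, as its subject. All 4 groups were grown on gelatin in serum-containing medium with leukemia inhibitory factor, the GSK3 inhibitor CHIR99021, the MEK inhibitor PD0325901 and sodium pyruvate, and the labels give all groups the same range of passages. The labels call the 2 samples of a group biological duplicates, but they do not say where the 3 enhancers lie, whether each knockout is 1 clone, or whether the duplicates came from separate clones or cultures. The p-values therefore measure the spread between these samples, which may be partly technical. No edited control line is among the 4 groups, so the deletion of an enhancer, the passage through CRISPR/Cas9 editing, and the clone cannot be told apart. RNA was measured in bulk, so fewer cells with a transcript and less transcript per cell cannot be told apart either.

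Glycolysis splits glucose into pyruvate in the cytosol. The upper steps trap and phosphorylate the sugar at the cost of ATP, and the lower steps return ATP and NADH. Lactate dehydrogenase turns pyruvate into lactate and recovers NAD+, whereas the pyruvate dehydrogenase complex, held back by its kinases, feeds pyruvate into the tricarboxylic acid cycle. The pentose phosphate pathway makes NADPH and ribose. Mouse ES cells are known to use both glycolysis and respiration, and many glycolytic genes are known targets of the hypoxia-inducible factor HIF. HIF binds a short sequence with the core ACGTG or GCGTG, of which only ACGTG was searched for here.

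The promoters of 6 members, chosen after their values were seen, are printed to show where ACGTG is and is not present. Each is the 250 bases before the RefSeq transcription start (build GRCm38.p6), read on the gene's own strand. Capitals mark ACGTG or its reverse complement CACGT. Slc2a1, Pgk1 and Slc16a3 hold ACGTG and were lower in E2-KO and E3-KO, and Pgam1 holds it and was higher in E3-KO. Ldhb and Pdk1 were lower in E2-KO and E3-KO as well and have no match to ACGTG in these windows, although both windows hold GCGTG, which is not marked.
Slc2a1 (chr4:119108495-119108744, plus strand): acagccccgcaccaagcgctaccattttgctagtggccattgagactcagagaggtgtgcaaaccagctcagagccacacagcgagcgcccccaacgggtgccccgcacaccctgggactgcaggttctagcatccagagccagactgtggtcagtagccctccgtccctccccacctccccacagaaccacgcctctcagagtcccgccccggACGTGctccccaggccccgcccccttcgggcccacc
Pgk1 (chrX:106186850-106187099, plus strand): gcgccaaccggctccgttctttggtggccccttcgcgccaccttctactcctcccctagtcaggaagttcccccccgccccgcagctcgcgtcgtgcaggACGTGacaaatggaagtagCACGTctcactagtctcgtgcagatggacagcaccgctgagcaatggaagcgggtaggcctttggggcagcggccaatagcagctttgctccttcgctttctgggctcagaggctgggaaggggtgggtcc
Slc16a3 (chr11:120948817-120949066, plus strand): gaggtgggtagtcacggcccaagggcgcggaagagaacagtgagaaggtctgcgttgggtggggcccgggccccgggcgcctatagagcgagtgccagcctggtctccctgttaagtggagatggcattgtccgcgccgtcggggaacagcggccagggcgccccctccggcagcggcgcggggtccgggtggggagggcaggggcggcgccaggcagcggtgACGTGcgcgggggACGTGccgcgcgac
Pgam1 (chr19:41911621-41911870, plus strand): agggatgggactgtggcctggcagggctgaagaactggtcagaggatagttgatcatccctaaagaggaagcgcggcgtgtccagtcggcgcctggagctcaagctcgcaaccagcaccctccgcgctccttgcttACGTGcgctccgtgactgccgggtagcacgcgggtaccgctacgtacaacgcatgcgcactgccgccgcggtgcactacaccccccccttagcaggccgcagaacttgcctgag
Ldhb (chr6:142507958-142508207, minus strand): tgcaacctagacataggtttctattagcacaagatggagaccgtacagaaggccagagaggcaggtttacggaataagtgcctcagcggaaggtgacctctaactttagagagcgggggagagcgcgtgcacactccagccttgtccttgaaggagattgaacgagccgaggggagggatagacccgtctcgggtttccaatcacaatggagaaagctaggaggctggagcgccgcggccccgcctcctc
Pdk1 (chr2:71872974-71873223, plus strand): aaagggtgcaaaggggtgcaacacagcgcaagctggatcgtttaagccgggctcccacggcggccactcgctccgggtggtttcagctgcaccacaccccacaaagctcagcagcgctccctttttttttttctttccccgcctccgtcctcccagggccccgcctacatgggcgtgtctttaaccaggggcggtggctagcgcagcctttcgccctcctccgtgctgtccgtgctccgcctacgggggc
The ACGTG matches lie 36 bases before the start of Slc2a1, 150 and 131 bases before that of Pgk1, 27 and 14 bases before that of Slc16a3, and 114 bases before that of Pgam1. On both strands together, 17 of the 52 RefSeq windows of the members (32.7%) held ACGTG, and 14 of the 36 members had at least 1 such window. Of these 14, 4 were called lower in E1-KO, 5 (E2-KO) and 6 (E3-KO), and of the 22 members without it 3, 7 and 11 were. Of all 32817 mouse windows of the same length, 16.6% held it. The E-box CACGTG, which contains ACGTG and is counted in it too, was in 9.62% of the member windows and 6.02% of all windows. The GC box GGGCGG was in 57.7% and 32.7%. A match is a description of these letters and not a measured binding site. Ldha, whose first window had the most matches, was not called lower in any knockout.

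Values are FPKM, fragments corrected for transcript length and for the number of mapped fragments, so levels can be compared between genes. The number of reads behind each value is unknown. A comparison of the steps between low values put the depth of the other 7 samples at 0.786 to 1.01 times that of WT replicate 1, but few genes shared the most frequent step (1.28% to 4.82%), so this is rough. Totals over all genes ran from 454974 to 532007 FPKM, and 11077 to 11264 genes reached 1 FPKM. Of 8 pluripotency markers (Pou5f1, Nanog, Zfp42, Esrrb, Tdgf1, Dppa5a, Fgf4 and Utf1), all 8 were at 1 FPKM or more in each group. Their summed level was 2434 to 2511 FPKM in WT, 2365 to 2419 (E1-KO), 2424 to 2615 (E2-KO) and 1973 to 2252 (E3-KO). The 7 fibroblast markers summed to 1.14 to 1.57 FPKM in WT, 3.49 to 3.52 (E1-KO), 2.4 to 2.91 (E2-KO) and 3.54 to 3.81 (E3-KO). Of them Thy1 reached a mean of 1 FPKM in each knockout and none did in WT, while Col3a1, Lum and Dcn were listed at 0 in most samples. Of 6 primitive endoderm markers 4 were matched (not Gata4 and Dab2), and these summed to at most 0.967 FPKM in any sample. Of 6 neural markers 4 were matched (not Tubb3 and Sox1), and these summed to 1.8 to 2.43 FPKM in WT, 3.82 to 4.16 (E1-KO), 1.65 to 2.13 (E2-KO) and 1.04 to 2.00 (E3-KO). The 6 trophoblast markers, of which 3 were at 1 FPKM or more in each group, summed to 43.4 to 47.6 FPKM in WT, 32.1 to 37.3 (E1-KO), 31.9 to 35.4 (E2-KO) and 46.5 to 54.1 (E3-KO). The part of these marker shifts in the results was not tested.

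All 36 members passed the filter on low values (an 8-sample mean of 1 FPKM or more), and they covered a wide range of levels. By their mean over the 8 samples, 13 members lay at 100 FPKM or more, 16 between 10 and 100, and 7 between 1 and 10. In WT, Gapdh, which makes 1,3-bisphosphoglycerate, stood at 4604 ± 24.6 FPKM (SD, n = 2), the third highest of all genes and the only member among the 50 highest. Aldoa, the main aldolase, followed at 819 ± 20.5 FPKM, Pkm, pyruvate kinase, at 732 ± 58.3 FPKM, and Eno1, the broadly expressed enolase, at 507 ± 40.8 FPKM. The lowest of the named members was Eno2, the neuronal enolase, at 1.58 ± 0.449 FPKM. The 36 genes summed to 9350 and 9056 FPKM in WT, 9274 and 8422 (E1-KO), 8412 and 9283 (E2-KO), and 6985 and 7045 (E3-KO). Both E3-KO samples lay below all others. Without Gapdh the sums were 4729 and 4470 FPKM in WT, 4800 and 4372 (E1-KO), 3865 and 4244 (E2-KO), and 3844 and 4153 (E3-KO). In that sum the E2-KO and E3-KO samples lay below both WT samples and E1-KO overlapped WT. Over the 31 members outside chromosome 6 the sums were 4201 and 3966 FPKM in WT and 4449 and 4038 (E1-KO). They were 3594 and 3959 (E2-KO), and 3704 and 3981 (E3-KO). There the E2-KO samples lay below both WT samples, and E1-KO and E3-KO overlapped WT.

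Each knockout was compared with WT across 11271 genes by limma-trend on log2(FPKM + 1), and a gene was called at a Benjamini-Hochberg adjusted p under 0.05. The added 1 makes the fold changes of low genes too small. Where 3 values follow each other without a name, they are those of E1-KO, E2-KO and E3-KO in turn. In E1-KO, 10 of the 36 members were called, 3 higher and 7 lower. Over all tested genes 38% were called in that comparison, 15% higher and 23% lower. In E2-KO, 14 members were called, 2 higher and 12 lower, against 36.1% of all genes (14.2% higher and 22% lower). In E3-KO, 20 members were called, 3 higher and 17 lower, against 44.7% of all genes (13.9% higher and 30.8% lower). Of the 36 members, 5 (Hk2, Tpi1, Gapdh, Eno2 and Ldhb) lie on chromosome 6, whose genes as a whole were lower in E3-KO, and these 5 are counted apart. Among the 31 members on other chromosomes, 6 fell in E1-KO (19.4%), 10 fell in E2-KO (32.3%) and 12 fell in E3-KO (38.7%), where 23%, 21.9% and 29.1% of all tested genes outside chromosome 6 fell. The median log2 change of these 31 members was 0.00286 (E1-KO), -0.12 (E2-KO) and -0.19 (E3-KO). That of all tested genes outside chromosome 6 was -0.06, -0.08 and -0.13. Over all tested genes it was -0.06, -0.08 and -0.15, a shift that median-ratio scaling took to 0.00301 in E3-KO. Changes of this size therefore depend on the scaling. Each result was refitted under 19 alternatives, namely 11 other settings (4 scalings of whole samples, centring of each chromosome on its own median in each sample, 2 filters, another pseudocount, a replicate block, summed repeated rows, and the pair of groups alone) and 8 fits with 1 sample left out. The split of members called depended on the scaling as well. With median-ratio scaling, the members higher and lower were 4 and 7 (E1-KO), 5 and 8 (E2-KO), and 6 and 11 (E3-KO). With each chromosome centred on its own median level in each sample, the splits were 5 and 5, 6 and 6, and 6 and 9. That centring left the median log2 change of all tested genes above 0, at 0.0605, 0.0596 and 0.0623, so it tilted each comparison towards increases. Of the members not called, 6 of 26 (E1-KO), 6 of 22 (E2-KO) and 7 of 16 (E3-KO) were called under at least 1 alternative. The counts also depended on single samples. The E1-KO count was 5 without WT replicate 1, 4 without WT replicate 2, 2 without E1-KO replicate 1 and 6 without E1-KO replicate 2. The E2-KO count was 4 without WT replicate 1, 5 without WT replicate 2 and 9 without E2-KO replicate 1. The E3-KO count was 11 without WT replicate 1 and 10 without WT replicate 2.

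**Figure D1:**
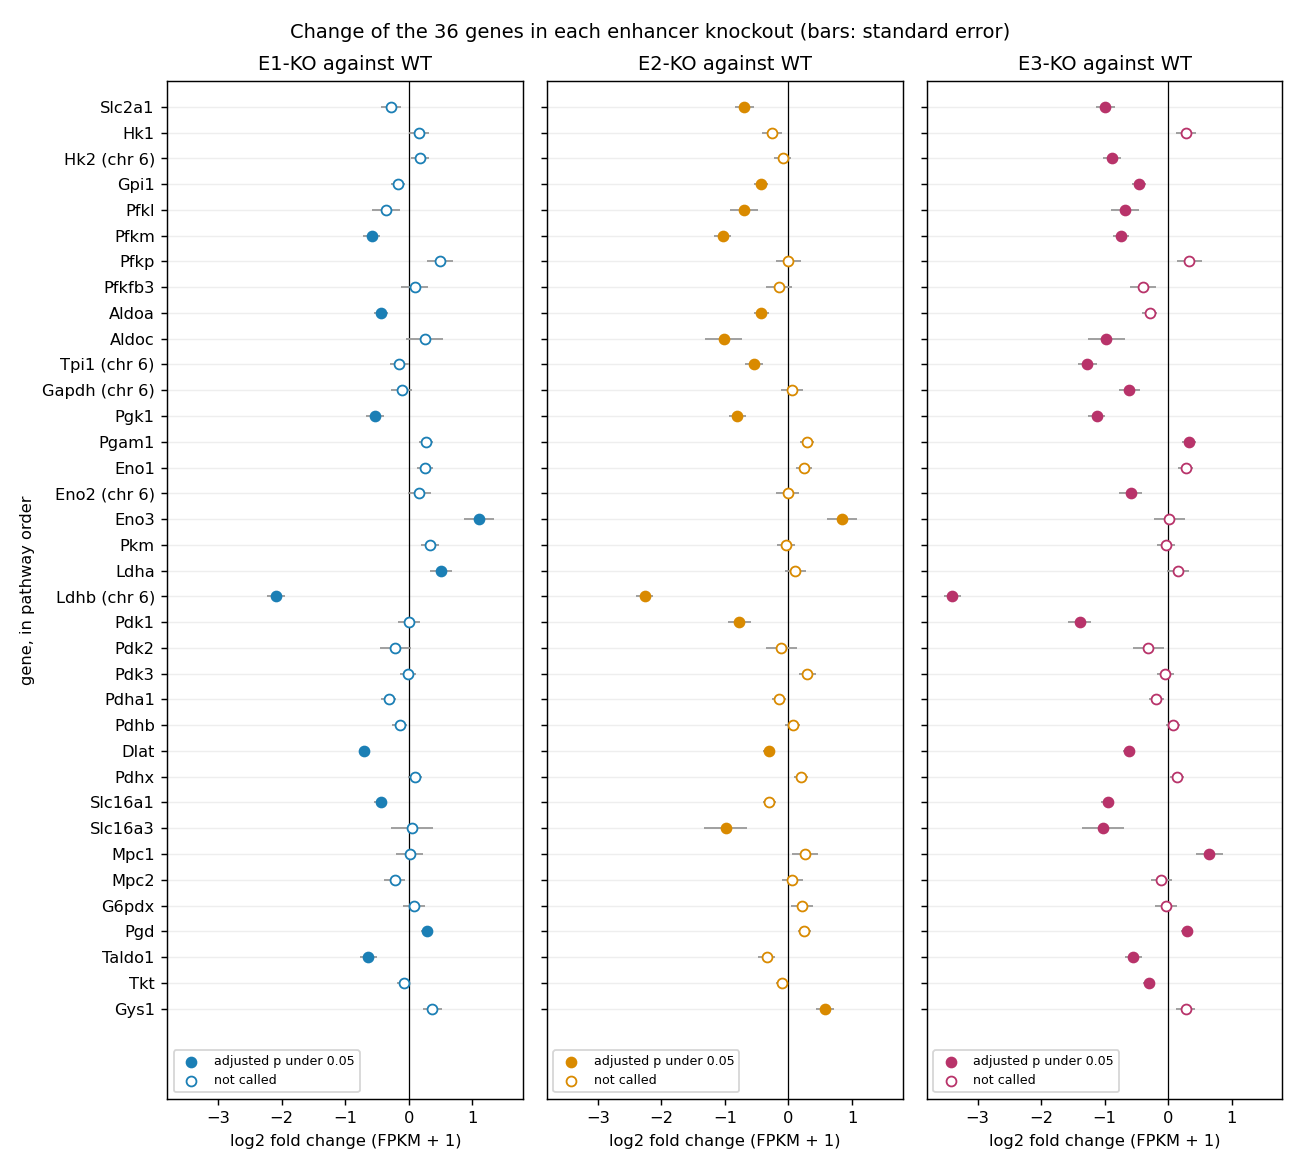
Log2 fold change on log2(FPKM + 1) of each of the 36 members against WT, in pathway order, with bars for the standard error. Filled points are called at an adjusted p under 0.05 and open points are not, and Ldhb is the lowest point in each panel, at -2.09, -2.26 and -3.40.

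All calls in the upper steps were decreases. Of the 11 genes from glucose uptake to triose phosphate isomerase, 2 fell in E1-KO, namely Pfkm and Aldoa. In E2-KO 7 fell (Slc2a1, Gpi1, Pfkl, Pfkm, Aldoa, Aldoc and Tpi1), and in E3-KO 7 fell (Slc2a1, Hk2, Gpi1, Pfkl, Pfkm, Aldoc and Tpi1). Of these, Hk2 and Tpi1 lie on chromosome 6. Slc2a1, the glucose transporter GLUT1, stood at 101 and 89.9 FPKM (WT), 88.7 and 68.6 (E1-KO), 52.6 and 64.8 (E2-KO), and 43.7 and 51.4 FPKM (E3-KO). Every knockout sample lay below both WT samples, by least in E1-KO, and the lowest was in E3-KO. The log2 change was -0.99 (E3-KO, SE 0.15, adjusted p = 0.00125), where the mean was 50% of the WT mean, and -0.69 (E2-KO, adjusted p = 0.00855), whereas for E1-KO it was -0.28 (adjusted p = 0.177). The E2-KO call was lost without WT replicate 1 or without E2-KO replicate 1 (log2 changes of -0.61 and -0.55, adjusted p of at most 0.0653). Hexokinase traps glucose as glucose 6-phosphate, and Hk1, its broadly expressed form, was measured at 68 and 65.2 FPKM (WT), 73.3 and 75.8 (E1-KO), 51.9 and 58.8 (E2-KO), and 67.2 and 98.1 FPKM (E3-KO). The E1-KO samples lay just above WT, the E2-KO samples just below, and E3-KO overlapped WT through a wide spread. None of these 3 differences passed, with log2 changes of 0.16 (adjusted p = 0.452), -0.26 (adjusted p = 0.221) and 0.28 (adjusted p = 0.176), although E3-KO was called higher without its replicate 1 (log2 change of 0.55, adjusted p = 0.00766).

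Phosphofructokinase commits the sugar to glycolysis, and of its 3 subunit genes Pfkm was called lower in each knockout, Pfkl in E2-KO and E3-KO, and Pfkp in none. Pfkm, the muscle-type subunit, stood at 12.9 and 15.2 FPKM (WT), 8.94 and 9.07 (E1-KO), 6.01 and 6.64 (E2-KO), and 7.45 and 8.59 FPKM (E3-KO). All 6 knockout samples lay below both WT samples. It fell in each knockout, with a change of -0.59 (E1-KO, SE 0.13, adjusted p = 0.00799), -1.04 (E2-KO, adjusted p = 0.000679) and -0.74 (E3-KO, adjusted p = 0.00216) on the log2 scale. The calls in E2-KO and E3-KO held under all 19 alternative settings and left-out samples, and that in E1-KO was lost without WT replicate 2 or E1-KO replicate 1 (adjusted p of at most 0.0793). Pfkl, the liver-type subunit, was at 30.3 and 25.2 FPKM (WT), 24.2 and 18.8 (E1-KO), 15.3 and 18 (E2-KO), and 13 and 21.9 FPKM (E3-KO). Every knockout sample again lay below WT, but the E3-KO pair was far apart. Its change was -0.70 (E2-KO, SE 0.22, adjusted p = 0.0351) and -0.68 (E3-KO, adjusted p = 0.0339), and -0.36 (E1-KO, adjusted p = 0.232). Both Pfkl calls were lost with quantile or median-ratio scaling and without either WT replicate, that in E2-KO also without either E2-KO replicate (adjusted p of at most 0.179), and the E3-KO value was -0.32 without E3-KO replicate 1 (adjusted p = 0.195). Pfkp, the platelet-type subunit and by far the highest of the 3, did not pass in any knockout, with log2 changes of 0.49 (adjusted p = 0.0796), -0.00 (adjusted p = 0.994) and 0.33 (adjusted p = 0.203). Pfkp was called higher in E1-KO with the pair of groups alone (adjusted p = 0.00154), with chromosome centring (log2 change of 0.58, adjusted p = 0.0465) and without either E3-KO sample (adjusted p = 0.0132), and in E3-KO without its replicate 1 (log2 change of 0.68, adjusted p = 0.00876). Of the summed FPKM of the 3 genes, Pfkp made up 75.6% and 76.3% in WT, 85.4% and 86.5% (E1-KO), 87.3% and 82.7% (E2-KO), and 86.5% and 87.4% (E3-KO), so every knockout sample lay above both WT samples in that share. Pfkfb3, which makes the activator fructose 2,6-bisphosphate, ranged from 3.99 to 8.09 FPKM over the 8 samples and did not pass in any knockout.

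Gpi1, which interconverts glucose 6-phosphate and fructose 6-phosphate, changed by -0.17 (E1-KO, adjusted p = 0.252), -0.44 (E2-KO, adjusted p = 0.0153) and -0.46 (E3-KO, adjusted p = 0.00958), and all 6 knockout samples lay below WT. Aldoa changed by -0.44 (adjusted p = 0.0143), -0.42 (adjusted p = 0.0178) and -0.29 (adjusted p = 0.0598) in the same order, and again no knockout sample reached WT. Aldoc, the brain-type aldolase and the lower of the pair by far, stood at 6.67 and 6.66 FPKM (WT), 10.2 and 6.41 (E1-KO), 1.81 and 4.08 (E2-KO), and 2.34 and 3.54 FPKM (E3-KO). Its E2-KO and E3-KO samples lay below both WT samples, which were nearly equal, and the E1-KO pair lay on both sides of them. It changed by -1.02 (E2-KO, SE 0.29, adjusted p = 0.0242) and -0.98 (E3-KO, adjusted p = 0.0234), and the value for E1-KO was 0.25 (adjusted p = 0.528). The Aldoc calls were lost with no filter on low values, without either WT replicate, and without E2-KO replicate 1 (log2 change of -0.59) or E3-KO replicate 1 (log2 change of -0.76). The Gpi1 calls were both lost without WT replicate 2 and with chromosome centring, where the E3-KO value was -0.24 (adjusted p = 0.162). That in E3-KO was also lost with median-ratio scaling (log2 change of -0.29, adjusted p = 0.0715), and that in E2-KO without WT replicate 1 or E2-KO replicate 1 (adjusted p of at most 0.119). Those of Aldoa were lost without either WT replicate, and that in E1-KO also without either E1-KO replicate (adjusted p of at most 0.118).

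In the lower steps, which hold 7 members, 1 rose and 1 fell in E1-KO and likewise in E2-KO, and 1 rose and 3 fell in E3-KO. The 3 that fell in E3-KO were Gapdh, Pgk1 and Eno2, of which Gapdh and Eno2 lie on chromosome 6. Pgk1, phosphoglycerate kinase, the first ATP-yielding step, fell in each knockout. It stood at 174 and 138 FPKM (WT), 108 and 106 (E1-KO), 79.3 and 98.8 (E2-KO), and 69.8 and 71.5 FPKM (E3-KO). All 6 knockout samples lay below WT, and the E3-KO pair lay below every other sample. The log2 change was -0.53 (E1-KO, SE 0.14, adjusted p = 0.0152), -0.80 (E2-KO, adjusted p = 0.00278) and -1.12 (E3-KO, adjusted p = 0.000389). The calls in E2-KO and E3-KO held under all 19 alternatives, and that in E1-KO was lost with chromosome centring and without WT replicate 1 or either E1-KO replicate (adjusted p of at most 0.133). Eno3, the muscle-type enolase, was the member with the largest rise. It stood at 3.28 and 3.93 FPKM (WT), 10.9 and 7.29 (E1-KO), 8.58 and 6.13 (E2-KO), and 4.61 and 2.87 FPKM (E3-KO). The E1-KO and E2-KO samples lay above both WT samples, and E3-KO overlapped WT. It changed by 1.11 (E1-KO, SE 0.24, adjusted p = 0.007) and 0.85 (E2-KO, adjusted p = 0.0226) on the log2 scale, and the value for E3-KO was 0.02 (adjusted p = 0.947). The E1-KO call was lost without E1-KO replicate 1 (adjusted p = 0.0611) and the E2-KO call without either WT replicate or E2-KO replicate 1 (adjusted p of at most 0.134).

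Pkm, Pgam1 and Eno1, abundant genes of the lower steps, had 1 call among them, that of Pgam1 in E3-KO. Pkm stood at 773 and 690.3 FPKM (WT), 971 and 869 (E1-KO), 654 and 775 (E2-KO), and 669 and 759 FPKM (E3-KO). The E1-KO pair lay above WT and the other groups overlapped it, and no difference passed, at 0.33 (adjusted p = 0.0928), -0.04 (adjusted p = 0.857) and -0.04 (adjusted p = 0.853). Pgam1, phosphoglycerate mutase, lay above both WT samples in all 6 knockout samples, with log2 changes of 0.27 (adjusted p = 0.0863), 0.30 (adjusted p = 0.0651) and 0.33 (adjusted p = 0.0378). The call in E3-KO held under 10 of the 19 alternatives, and was lost, among others, with quantile scaling and without either WT replicate (adjusted p of at most 0.194). Pgam1 was called higher in E2-KO under 5 alternatives, chromosome centring among them (log2 change of 0.48, adjusted p = 0.0184), and in E1-KO with the pair alone (adjusted p = 0.0172). Pkm was called higher in E1-KO with chromosome centring (log2 change of 0.46, adjusted p = 0.0359) and with the pair alone (adjusted p = 0.0193). Eno1 also lay above WT in all 6 knockout samples and was not called, with log2 changes of 0.25, 0.24 and 0.28 and the lowest adjusted p at 0.0916. Eno1 was called higher in E3-KO with median-ratio scaling (log2 change of 0.45, adjusted p = 0.0189) and with chromosome centring (log2 change of 0.36, adjusted p = 0.0481). Gapdh, Tpi1, Aldoa, Ldha, Pgk1, Pgam1 and Eno1 are known to have near-identical processed copies in the mouse genome, and how the authors assigned reads shared with such copies is not given in the sources used here, so their levels carry that uncertainty.

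**Figure D2:**
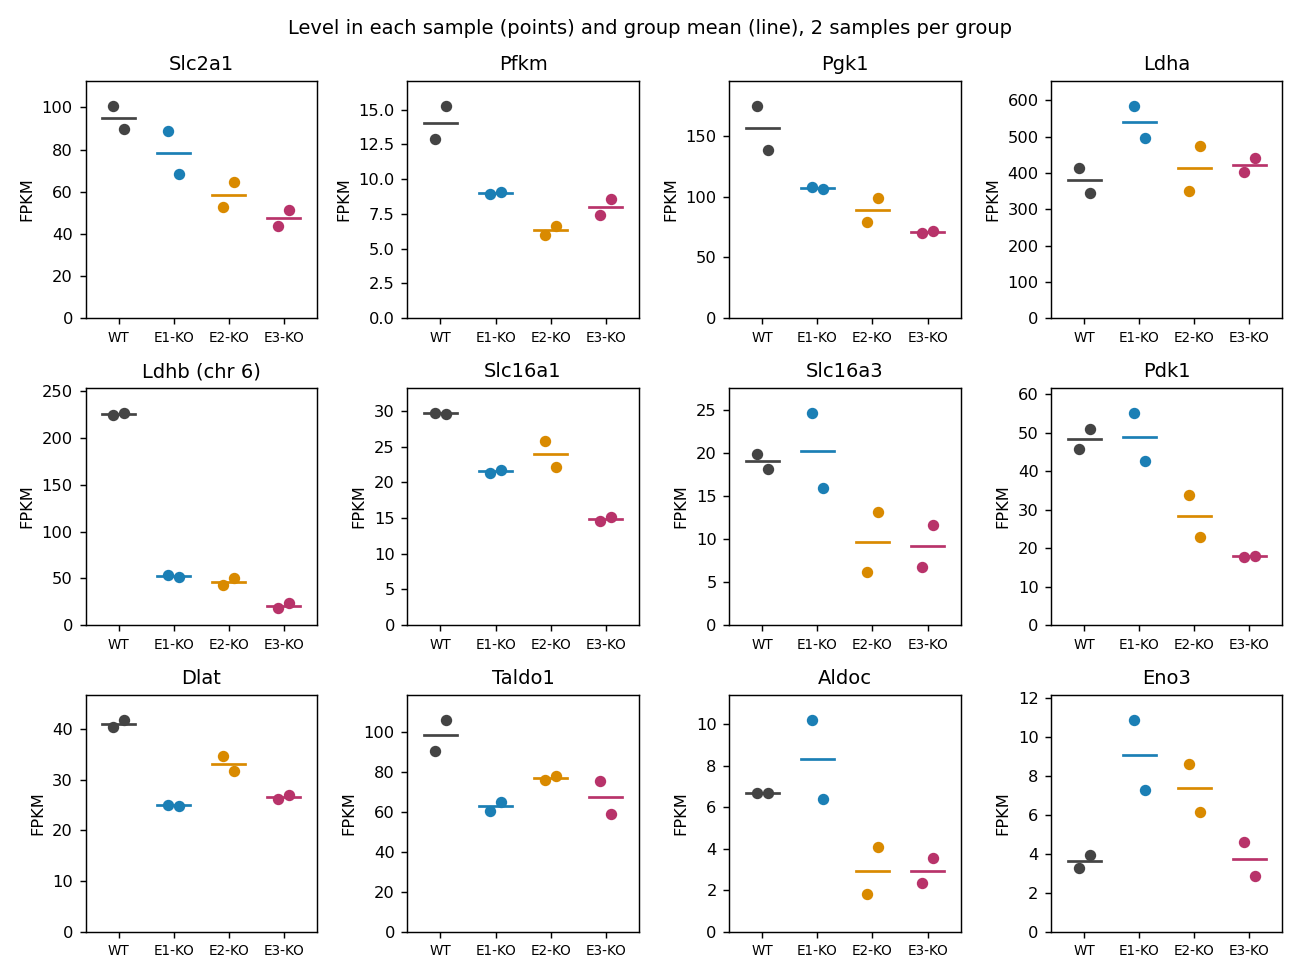
FPKM in each of the 8 samples (points, on linear axes from 0) with the group mean as a line, for members of each step. Ldhb shows the widest separation, with both WT samples at 224 or more and every knockout sample at 53.4 or less, and in the panels of Slc2a1, Pgk1, Slc16a1 and Pdk1 the E3-KO samples lie lowest.

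The lactate branch held the largest change. Ldhb, the subunit of lactate dehydrogenase that is known to favour pyruvate formation, fell in each knockout. It stood at 224 and 227 FPKM (WT), 53.4 and 51.2 (E1-KO), 42.6 and 50 (E2-KO), and 17.8 and 23.6 FPKM (E3-KO). The 6 knockout samples lay far below WT, and the E3-KO pair below the others. Group means were 226 ± 1.67 FPKM in WT, 52.3 ± 1.58 (E1-KO), 46.3 ± 5.24 (E2-KO) and 20.7 ± 4.15 FPKM (E3-KO), given with the SD (n = 2), or 23.2%, 20.5% and 9.18% of the WT mean. The log2 change was -2.09 (E1-KO, SE 0.14, adjusted p = 4.57e-05), -2.26 (E2-KO, adjusted p = 4.67e-05) and -3.40 (E3-KO, adjusted p = 7.13e-06), and these calls held under all 19 alternatives. Ldha, the subunit known to favour lactate formation, stood at 414 and 346 FPKM (WT), 583 and 496 (E1-KO), 350.4 and 474 (E2-KO), and 404 and 441 FPKM (E3-KO). Both E1-KO samples lay above both WT samples, and the other knockouts overlapped WT. It changed by 0.51 (E1-KO, SE 0.17, adjusted p = 0.0401), 0.11 (E2-KO, adjusted p = 0.64) and 0.16 (E3-KO, adjusted p = 0.47). The E1-KO call of Ldha was lost with quantile scaling (log2 change of 0.37), a common total, no filter, and without either sample of WT or of E1-KO (adjusted p of at most 0.246). Within each sample the ratio of Ldha to Ldhb in FPKM was 1.85 and 1.53 in WT, 10.9 and 9.69 (E1-KO), 8.23 and 9.48 (E2-KO), and 22.7 and 18.7 (E3-KO). Every knockout sample lay above both WT samples, and the E3-KO samples above all others.

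Both monocarboxylate transporters of the list, which move lactate and pyruvate across the plasma membrane, were lower in E3-KO. Slc16a1 (MCT1) stood at 29.7 and 29.6 FPKM (WT), 21.3 and 21.7 (E1-KO), 25.9 and 22.1 (E2-KO), and 14.5 and 15.2 FPKM (E3-KO). The WT pair was nearly equal, all knockout samples lay below it, and the E3-KO pair was lowest. It changed by -0.44 (E1-KO, SE 0.11, adjusted p = 0.0107) and -0.95 (E3-KO, adjusted p = 0.000243), and the value for E2-KO was -0.30 (adjusted p = 0.0526). Slc16a1 was called lower in E2-KO, among others, with a common total (log2 change of -0.38, adjusted p = 0.0187). The same held with a filter at a mean of 5 FPKM (adjusted p = 0.0491). The E3-KO call held under all 19 alternatives, and the E1-KO call was lost with chromosome centring and without any 1 WT or E1-KO sample (adjusted p of at most 0.0891). Slc16a3 (MCT4), known as a lactate exporter of glycolytic cells, stood at 19.9 and 18.2 FPKM (WT), 24.7 and 15.9 (E1-KO), 6.19 and 13.2 (E2-KO), and 6.78 and 11.6 FPKM (E3-KO). The E2-KO and E3-KO samples lay below WT with wide gaps within each pair, and E1-KO lay on both sides of WT. It changed by -0.99 (E2-KO, SE 0.33, adjusted p = 0.0442) and -1.02 (E3-KO, adjusted p = 0.0336), and was 0.06 (E1-KO, adjusted p = 0.909). Both calls of Slc16a3 were lost with quantile or median-ratio scaling and without either WT replicate, and the values were -0.50 without E2-KO replicate 1 and -0.67 without E3-KO replicate 1.

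**Figure D3:**
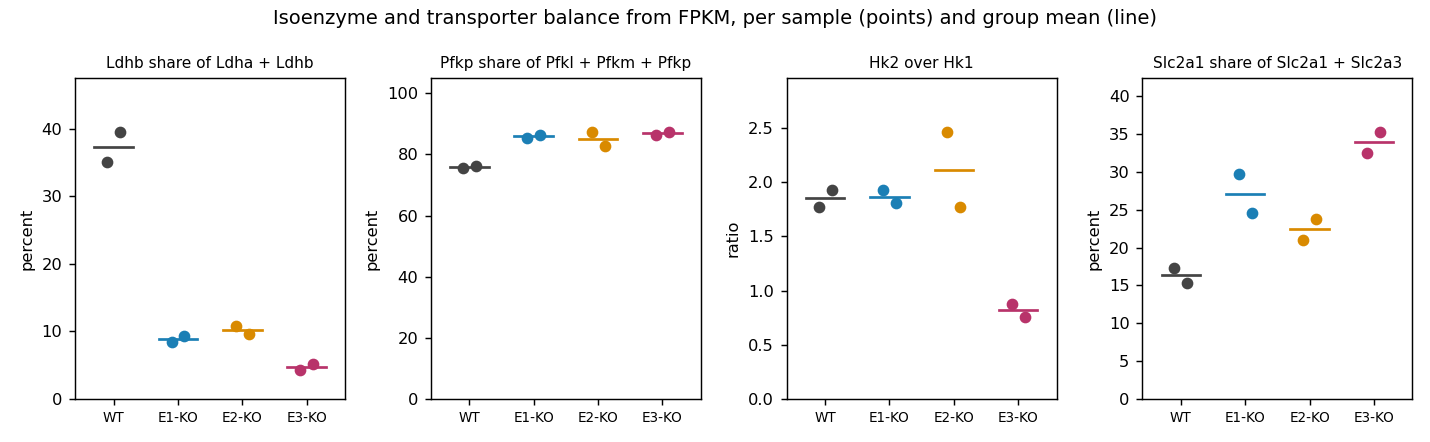
Isoenzyme and transporter balance computed from FPKM within each sample (points, with the group mean as a line), as a percentage or a ratio. Ldhb makes up 35.1% and 39.6% of Ldha plus Ldhb in the WT samples and at most 10.8% in any knockout sample, and the ratio of Hk2 to Hk1 is 0.877 or less in E3-KO and 1.77 or more elsewhere. Hk2, Ldhb and Slc2a3 lie on chromosome 6, whose genes were lower as a whole in E3-KO.

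Entry of pyruvate into the mitochondrion was represented by 9 genes, of which E1-KO had 1 called, E2-KO 2 and E3-KO 3. Pdk1, a kinase that switches the pyruvate dehydrogenase complex off, stood at 45.8 and 50.9 FPKM (WT), 55 and 42.6 (E1-KO), 33.7 and 22.9 (E2-KO), and 17.6 and 18.1 FPKM (E3-KO). The E1-KO pair lay on both sides of WT, the E2-KO pair lay below WT, and the E3-KO pair lay below every other sample. The log2 change was -1.39 (E3-KO, SE 0.18, adjusted p = 0.000523) and -0.78 (E2-KO, adjusted p = 0.0103), beside 0.00 (E1-KO, adjusted p = 0.991). The E3-KO call held under all 19 alternatives, and the E2-KO call was lost without WT replicate 2 (adjusted p = 0.0763). Its relatives Pdk2, at 1.58 to 3.48 FPKM over the 8 samples, and Pdk3, at 12.7 to 18.6 FPKM, were not called in any knockout, although Pdk3 was called higher in E2-KO with quantile or median-ratio scaling and with chromosome centring (log2 changes of 0.37 to 0.45, adjusted p of at most 0.049). Dlat, the acetyltransferase core of the complex, stood at 40.4 and 41.8 FPKM (WT), 24.9 and 24.9 (E1-KO), 34.6 and 31.7 (E2-KO), and 26.3 and 26.9 FPKM (E3-KO). All 6 knockout samples lay below the close WT pair, and E1-KO and E3-KO lay lowest. It changed by -0.70 (E1-KO, SE 0.09, adjusted p = 0.000828), -0.30 (E2-KO, adjusted p = 0.0331) and -0.61 (E3-KO, adjusted p = 0.00116). The calls in E1-KO and E3-KO held under all 19 alternatives, and that in E2-KO was lost, among others, with median-ratio scaling, with chromosome centring (log2 change of -0.14, adjusted p = 0.269) and without either WT sample (adjusted p of at most 0.176).

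The other subunits of the complex did not pass. Pdha1, of the catalytic first component, ranged from 65.3 to 87.4 FPKM and came nearest in E1-KO, at -0.32 (adjusted p = 0.0571). Its partner Pdhb ranged from 49.7 to 67.8 FPKM, and Pdhx, which anchors the third component, from 24.8 to 30.3 FPKM. Pdha1 was called lower in E1-KO under 6 of the 19 alternatives (log2 changes of -0.36 to -0.32, adjusted p of at most 0.0294). Pdhx was called higher in E3-KO with quantile or median-ratio scaling (adjusted p of at most 0.0445), and with chromosome centring Pdhx was called higher in E2-KO (adjusted p = 0.0303) and Pdhb in E3-KO (adjusted p = 0.0416). Mpc1, a subunit of the mitochondrial pyruvate carrier, stood at 31 and 31.1 FPKM (WT), 33.2 and 29.4 (E1-KO), 41.8 and 33.3 (E2-KO), and 63.6 and 37.8 FPKM (E3-KO). The E2-KO and E3-KO samples lay above WT, and E3-KO replicate 1 stood well above all others. Its E3-KO change was 0.65 (SE 0.21, adjusted p = 0.0341), and without that sample it was 0.28 (adjusted p = 0.178). It did not pass without either WT replicate. Its changes in E1-KO and E2-KO were 0.01 (adjusted p = 0.972) and 0.26 (adjusted p = 0.363). The partner Mpc2, at 4.17 to 6.15 FPKM, was not called in any knockout.

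In the pentose phosphate pathway, 1 of 4 genes rose and 1 fell in E1-KO, and 1 rose and 2 fell in E3-KO. Taldo1, transaldolase of the non-oxidative branch, stood at 90.5 and 106 FPKM (WT), 60.5 and 64.9 (E1-KO), 76 and 77.7 (E2-KO), and 75.5 and 58.9 FPKM (E3-KO). All 6 knockout samples lay below both WT samples. It changed by -0.64 (E1-KO, SE 0.13, adjusted p = 0.00607) and -0.55 (E3-KO, adjusted p = 0.00939), and was -0.34 (E2-KO, adjusted p = 0.0699). Both calls were lost without WT replicate 2, and the E1-KO call also without E1-KO replicate 1 (adjusted p of at most 0.0866). In E2-KO, Taldo1 was called lower, among others, with quantile scaling (log2 change of -0.42, adjusted p = 0.0305) and a common total (log2 change of -0.43, adjusted p = 0.0247). Tkt, transketolase of the same branch, ranged from 105.5 to 142 FPKM and changed by -0.30 (adjusted p = 0.0304) in E3-KO. That call of Tkt held under 9 of the 19 alternatives. It was -0.13 with median-ratio scaling (adjusted p = 0.295) and -0.05 with chromosome centring (adjusted p = 0.699). Pgd, of the oxidative branch, lay above both WT samples in every knockout sample, with log2 changes of 0.28 (adjusted p = 0.0438), 0.25 (adjusted p = 0.0689) and 0.30 (adjusted p = 0.0314). The Pgd call in E1-KO held under 11 of the 19 alternatives and that in E3-KO under 13. Both were lost without either WT sample (adjusted p of at most 0.259), that in E1-KO also without either E1-KO sample, with quantile scaling (adjusted p = 0.124), a common total or the replicate block (adjusted p = 0.0586), and that in E3-KO also with the pair alone or without E3-KO replicate 2 (adjusted p of at most 0.104). In E2-KO it was called higher with median-ratio scaling (adjusted p = 0.0258) and chromosome centring (adjusted p = 0.0412). G6pdx, the entry enzyme, ranged from 18.4 to 28.9 FPKM, overlapped WT in each knockout and was not called.

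Gys1, glycogen synthase, is the 1 member of glycogen metabolism. It stood at 12.8 and 14.3 FPKM (WT), 20.3 and 15.6 (E1-KO), 19.1 and 22.3 (E2-KO), and 15.6 and 17.6 FPKM (E3-KO). All 6 knockout samples lay above both WT samples, and the rise was called for E2-KO at 0.57 (SE 0.15, adjusted p = 0.0157), beside 0.37 (E1-KO, adjusted p = 0.0741) and 0.28 (E3-KO, adjusted p = 0.155). The identifier of Gys1 has a second row in the tables, which was not used in these values and held 0.522 and 0.538 FPKM in WT, 4.22 and 3.6 (E1-KO), 3.97 and 2.97 (E2-KO), and 3.32 and 3.69 (E3-KO). With both rows summed the change was 0.59 in E1-KO (adjusted p = 0.00981) and 0.49 in E3-KO (adjusted p = 0.0185). From the row used alone, Gys1 was called higher in E1-KO with quantile (adjusted p = 0.0301) or median-ratio scaling (adjusted p = 0.0479). In E3-KO it was called higher with quantile scaling (adjusted p = 0.0286), median-ratio scaling (adjusted p = 0.0429) and chromosome centring (adjusted p = 0.0368). What the second row counts is not given in the sources used here. The E2-KO call was lost without either WT replicate or E2-KO replicate 2 (adjusted p of at most 0.102).

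The 5 members on chromosome 6 were read beside the other 524 tested genes of that chromosome that are on none of the lists. The median log2 change of those 524 genes was -0.04 (E1-KO), -0.07 (E2-KO) and -0.62 (E3-KO). Less the median over all other chromosomes, the chromosome stood at -0.48 in E3-KO replicate 1 and -0.50 in E3-KO replicate 2, and at -0.01 to 0.02 in the E1-KO and E2-KO samples. All 5 members were called lower in E3-KO against WT, where 64.7% of the 524 genes were. Hk2, the inducible hexokinase, stood at 121 and 126 FPKM (WT), 141 and 137 (E1-KO), 128 and 104 (E2-KO), and 59 and 74.4 FPKM (E3-KO). E1-KO lay above WT, E2-KO overlapped it and E3-KO lay below every other sample. The log2 change in E3-KO was -0.88 (SE 0.14, adjusted p = 0.00117), which became -0.10 with each chromosome centred on its own median (adjusted p = 0.58). Gapdh stood at 4621 and 4586 FPKM (WT), 4474 and 4050 (E1-KO), 4547 and 5039 (E2-KO), and 3141 and 2892 FPKM (E3-KO). The E3-KO pair lay below every other sample. Its change in E3-KO was -0.61 (SE 0.17, adjusted p = 0.0169), almost the chromosome's median. It turned to 0.18 (adjusted p = 0.408) with chromosome centring, so its direction depends on that scaling. Centring subtracts the chromosome's median level in each sample, not its median change, and it moved Hk2 and Gapdh by more than that change. Relative to the chromosome's median change, Hk2 stood at -0.26 and Gapdh at 0.01. The Gapdh call was also lost with median-ratio scaling and without either WT replicate (adjusted p of at most 0.107). It was -0.11 (adjusted p = 0.624) in E1-KO and 0.06 (adjusted p = 0.813) in E2-KO.

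Tpi1, triose phosphate isomerase, stood at 181 and 151 FPKM (WT), 154 and 144 (E1-KO), 99.6 and 129 (E2-KO), and 62.7 and 73.8 FPKM (E3-KO). The E2-KO pair lay below WT and the E3-KO pair below that. It changed by -1.27 (SE 0.15, adjusted p = 0.000309) in E3-KO, -0.65 relative to the chromosome's median, and by -0.54 (adjusted p = 0.0206) in E2-KO. The E3-KO call held under all 19 alternatives, chromosome centring included, and the E2-KO call was lost with that centring, with median-ratio scaling and without WT replicate 1 or E2-KO replicate 1 (adjusted p of at most 0.146). Eno2 stood at 1.89 and 1.26 FPKM (WT), 2.07 and 1.67 (E1-KO), 1.53 and 1.55 (E2-KO), and 0.862 and 0.546 FPKM (E3-KO). The E3-KO pair lay below all other samples, and the other groups overlapped. Its change in E3-KO was -0.59 (SE 0.18, adjusted p = 0.0261), near the chromosome's median. With chromosome centring, which moved Eno2 too by more than that median, it turned to 0.20 (adjusted p = 0.435). Its call was also lost with median-ratio scaling (adjusted p = 0.0507) and without WT replicate 1 or E3-KO replicate 2 (adjusted p of at most 0.18). The identifier of Eno2 has a second row, not used in these values, at 0.813 and 0.89 FPKM (WT), 1.25 and 1.15 (E1-KO), 0.771 and 1.14 (E2-KO), and 1.15 and 0.848 FPKM (E3-KO), where the groups overlapped. With both rows summed the E3-KO change was -0.35 (adjusted p = 0.133). Of the listed pathway genes on the chromosome, Ldhb, Slc2a3 and Tpi1 lay furthest below its E3-KO median, Slc2a3 at -1.76 relative to it. The change of Ldhb in E3-KO was -2.78 relative to the chromosome's median, and 0 of the 524 other genes had a lower value there. In E1-KO 1 of the 524 was lower, and in E2-KO 2.

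**Figure D4:**
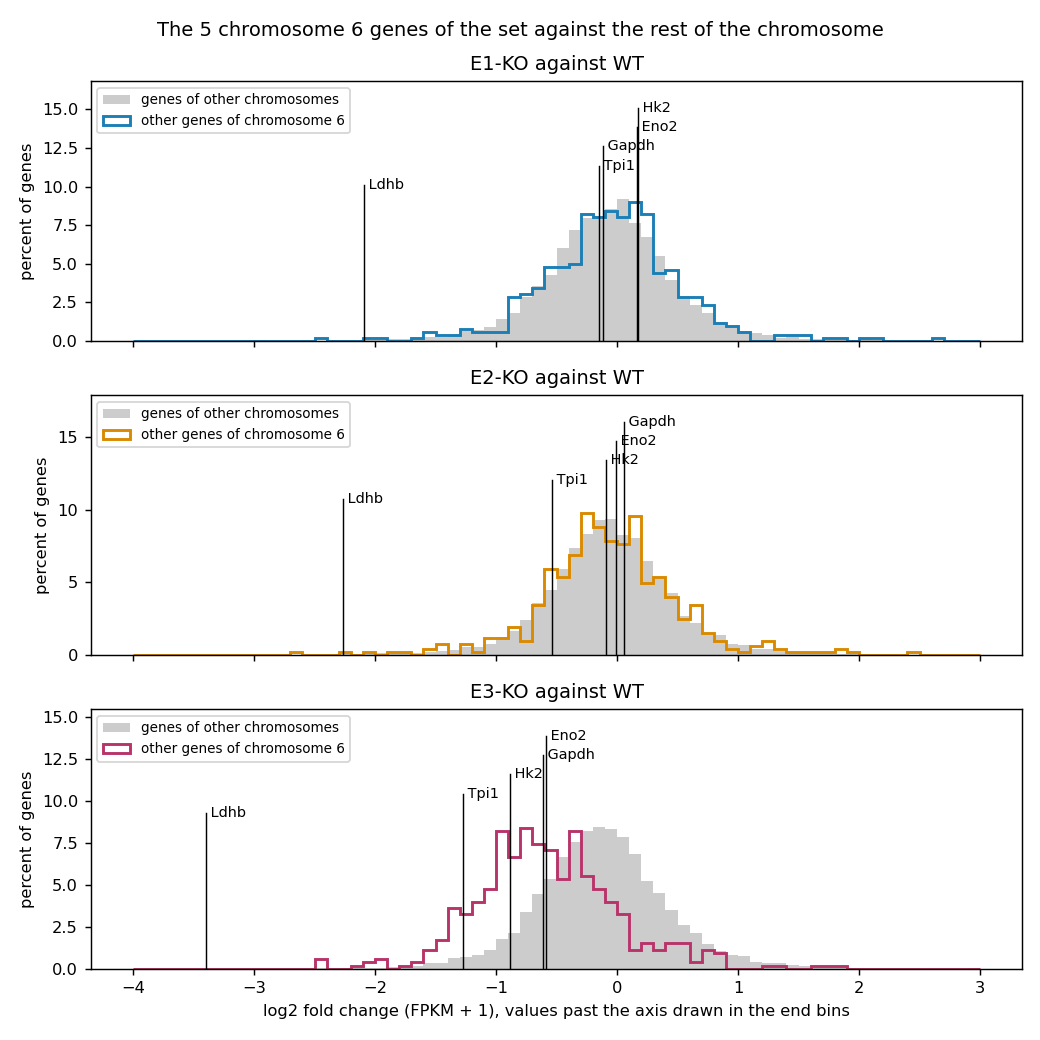
Distribution of the log2 change against WT over the other 524 tested genes of chromosome 6 (outline) and over genes of other chromosomes (grey), as a percentage of genes, with a line at each member of chromosome 6. In the E3-KO panel the outline is shifted to a median of -0.62, with Gapdh and Eno2 near it and Ldhb left of all 524.

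Balances between isoenzymes within a sample are not moved by the scaling of whole samples. The ratio of Hk2 to Hk1 was 1.77 and 1.93 in WT, 1.93 and 1.81 (E1-KO), 2.47 and 1.77 (E2-KO), and 0.877 and 0.758 (E3-KO). Both E3-KO samples lay below all others, and the other groups overlapped. Hk2 lies on chromosome 6 and Hk1 does not, and Hk2 stood at -0.26 relative to that chromosome's E3-KO median, so the ratio includes the lower level of the whole chromosome. Slc2a1 made up 17.3% and 15.4% of the sum of Slc2a1 and Slc2a3 in WT, 29.7% and 24.5% (E1-KO), 21.1% and 23.8% (E2-KO), and 32.5% and 35.3% (E3-KO). Every knockout sample lay above both WT samples in that share. Slc2a3 also lies on chromosome 6 and Slc2a1 does not, so that share includes it too, as does the ratio of Ldha to Ldhb.

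The knockouts were then compared with each other in the same fit. Against E1-KO, E3-KO had 11 of the 36 members lower and none higher, where 25.8% of all genes were called, 9.41% higher and 16.4% lower. Of these 11, 7 lie outside chromosome 6. They were Pdk1 at -1.39 (adjusted p = 0.000961), Aldoc at -1.23 (adjusted p = 0.0148), Eno3 at -1.09 (adjusted p = 0.0103), Slc16a3 at -1.07 (adjusted p = 0.0422), Slc2a1 at -0.71 (adjusted p = 0.0103), Pgk1 at -0.59 (adjusted p = 0.0133) and Slc16a1 at -0.51 (adjusted p = 0.00833). The other 4 were Ldhb, Tpi1, Hk2 and Eno2. Hk2, Ldhb and Pdk1 held that call under all 19 alternatives, Tpi1 lost it with chromosome centring, and the remaining 7 each lost it without E1-KO replicate 1, which left 4 members called. Of the 25 members not called in E3-KO against E1-KO, 6 were called under at least 1 alternative. Mpc1, among them, was called higher with each whole-sample scaling, chromosome centring and the replicate block. Its log2 changes there were 0.63 to 0.80 (adjusted p of at most 0.0328). Against E2-KO, E3-KO had 8 members called, 1 higher and 7 lower, where 15.6% of all genes were called, 5.48% higher and 10.1% lower. Outside chromosome 6 they were Eno3 at -0.83 (adjusted p = 0.0463), Slc16a1 at -0.65 (adjusted p = 0.00508), Pdk1 at -0.61 (adjusted p = 0.0496) and, higher, Hk1 at 0.55 (adjusted p = 0.0478). Slc16a1 held its call under all 19 alternatives there, and the other 7 did not. Without either WT replicate 4 members were called. Between E2-KO and E1-KO limma-trend called 0 of the 36 members, where 0.834% of all genes were called. At an unadjusted p under 0.05 it counted 13 members, and with each sample rescaled to a common total it called 1, Pdk1 (main value -0.78 (adjusted p = 0.0815)). Aldoc had the largest difference there, at -1.27 (adjusted p = 0.0812). This count does not show that the 2 knockouts act alike.

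Replicates of these genes were less close than those of genes in general in some groups. The difference of replicate 1 from replicate 2 lay outside the range holding 90% of all tested genes for 3 of the 36 members in WT, 8 (E1-KO), 5 (E2-KO) and 8 (E3-KO). Slc16a3 had the widest gap among the members of E1-KO (0.60) and of E2-KO (-0.98), and the extremes of E3-KO were Pfkl (-0.70) and Mpc1 (0.73), on the log2 scale.

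Other genes of the same pathways came from a list of 51 symbols, of which 48 were in the tables and 37 passed the filter. In E1-KO 3 rose and 17 fell, in E2-KO 3 rose and 14 fell, and in E3-KO 5 rose and 13 fell, or 54.1%, 45.9% and 48.6% called, beside 38%, 36.1% and 44.7% of all tested genes. Their median log2 change was -0.36, -0.23 and -0.22, beside -0.06, -0.08 and -0.15 over all tested genes. These counts and medians include Slc2a3, Bpgm, Tigar and Rpia, which lie on chromosome 6, lower as a whole in E3-KO. Slc2a3, the high-affinity glucose transporter GLUT3 on chromosome 6, stood at 479.5 and 495 FPKM (WT), 210.2 and 211 (E1-KO), 197 and 207 (E2-KO), and 90.8 and 94.3 FPKM (E3-KO). The groups did not overlap WT, and E3-KO was lowest. It changed by -1.20 (SE 0.09, adjusted p = 8.38e-05), -1.26 (adjusted p = 7.74e-05) and -2.38 (adjusted p = 7.13e-06). Pygb, the brain form of glycogen phosphorylase, stood at 16.1 and 17.2 FPKM (WT), 9.5 and 8.82 (E1-KO), 4.2 and 6.26 (E2-KO), and 2.65 and 2.72 FPKM (E3-KO). All knockout samples lay below WT and the E3-KO pair lay lowest, with changes of -0.80 (SE 0.16, adjusted p = 0.0054), -1.52 (adjusted p = 0.00037) and -2.26 (adjusted p = 5.79e-05). The calls of Slc2a3 and Pygb against WT held under all 19 alternatives.

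Of that list, Fbp2 and Slc5a1 were higher in E3-KO and lower in E1-KO than in WT. Fbp2, a muscle form of the gluconeogenic fructose bisphosphatase, stood at 3.59 and 2.94 FPKM (WT), 1.24 and 1.13 (E1-KO), 3.42 and 4.1 (E2-KO), and 22.2 and 12.8 FPKM (E3-KO). The E1-KO pair lay below WT and the E3-KO pair well above it. It changed by -0.96 (E1-KO, SE 0.23, adjusted p = 0.0106), 0.16 (E2-KO, adjusted p = 0.609) and 2.07 (E3-KO, adjusted p = 0.000232). Slc5a1, the sodium-glucose cotransporter SGLT1, stood at 2.09 and 2.01 FPKM (WT), 0.558 and 0.887 (E1-KO), 3.5 and 3.07 (E2-KO), and 8.81 and 6.36 FPKM (E3-KO). The order of groups was E1-KO, WT, E2-KO and E3-KO, without overlap. It changed by -0.83 (SE 0.18, adjusted p = 0.00698), 0.49 (adjusted p = 0.0574) and 1.48 (adjusted p = 0.000352). The E1-KO calls were lost without E1-KO replicate 1 for Slc5a1 (adjusted p = 0.0576), and without WT replicate 1 or E1-KO replicate 2 for Fbp2 (adjusted p of at most 0.0703).

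Regulators and non-glycolytic targets of HIF were listed as 21 genes, of which 20 passed the filter. In E1-KO 1 rose and 2 fell, in E2-KO 1 rose and 9 fell, and in E3-KO 1 rose and 6 fell, or 15%, 50% and 35% called, beside 38%, 36.1% and 44.7% of all tested genes. Their median log2 changes were -0.13, -0.40 and -0.25, beside -0.06, -0.08 and -0.15 over all tested genes. These counts and medians include Vhl and Kdm3a, which lie on chromosome 6, lower as a whole in E3-KO. Bnip3, a mitophagy receptor, stood at 44.3 and 32.3 FPKM (WT), 42 and 28.9 (E1-KO), 10.8 and 26.7 (E2-KO), and 19.9 and 23.7 FPKM (E3-KO). Both E2-KO and E3-KO lay below WT and E1-KO overlapped it, with changes of -0.11 (adjusted p = 0.816), -1.11 (SE 0.35, adjusted p = 0.0352) and -0.77 (adjusted p = 0.101). Egln3, an oxygen-sensing prolyl hydroxylase, changed by -0.71 (adjusted p = 0.0667), -1.09 (adjusted p = 0.0133) and -0.93 (adjusted p = 0.0203), and P4ha1, a collagen prolyl hydroxylase, by -0.40 (adjusted p = 0.141), -1.06 (adjusted p = 0.00415) and -0.73 (adjusted p = 0.0163). Ndrg1, a stress-responsive gene, changed by -0.50 (adjusted p = 0.162), -0.98 (adjusted p = 0.0193) and -0.24 (adjusted p = 0.49). Hif1a, the oxygen-regulated subunit of HIF itself, ranged from 28.5 to 35.3 FPKM over the 8 samples and was not called. The E2-KO call of Bnip3 was lost with quantile or median-ratio scaling and without either WT replicate or E2-KO replicate 1 (log2 change of -0.49). With the pair of groups alone, Bnip3 was called lower in E3-KO (adjusted p = 0.0119) and Egln3 in E1-KO (adjusted p = 0.0113). The E3-KO call of P4ha1 was lost with quantile (adjusted p = 0.068) or median-ratio scaling (adjusted p = 0.0505), and that of Egln3 with chromosome centring (adjusted p = 0.0638). The E2-KO calls of Egln3 and Ndrg1 were lost without WT replicate 1 or E2-KO replicate 1, and that of Ndrg1 also without WT replicate 2 (adjusted p of at most 0.119). The E3-KO calls of Egln3 and P4ha1 were lost without WT replicate 1 or E3-KO replicate 1, and that of Egln3 also without WT replicate 2 (adjusted p of at most 0.123).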

How the data were processed

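Total RNA from 8 samples of mouse ES cells was sequenced as paired-end Illumina libraries, per the labels' protocols. Trimmomatic 0.36, TopHat2 2.0.12, Cufflinks 2.2.1 and build mm9 are named in the submitters' processing notes. The authors deposited 1 table of identifiers and values per sample, taken here as FPKM because Cufflinks is named and the values are not whole. The authors' filters, strand setting and treatment of shared reads are not given in the sources used here.

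The tables held 18774 rows and 17812 identifiers, of which 660 were repeated. For 579 of these the row that fitted the order of genes along the chromosome was kept, 81 were left out, and 17731 remained, with 17262 of the 17812 matched to a symbol. Chromosomes came from GENCODE M21, and RefSeq promoters from GRCm38.p6, on which no deposited value was placed. The 11271 genes whose mean reached 1 FPKM were tested on log2(FPKM + 1) with limma-trend (limma 3.58.1, R 4.3.3), with all 4 groups in 1 fit, group as the only term and 4 residual degrees of freedom. Tests were two-sided, with Benjamini-Hochberg adjustment over all genes tested, called under 0.05. Depth is unknown, so no counting interval is given. The fit was tested on simulated data. The 19 alternatives were 11 settings (other scaling, filter, pseudocount, samples in the fit, replicate block, repeated rows) and 8 fits with 1 sample left out, in which the lone sample is assumed to vary like the other groups. The members and lists were chosen with earlier results of these data known. Values per sample were given for Slc2a1, Hk1, Hk2, Pkm, Ldha, Ldhb, Gapdh and Pdk1, and for members called with an absolute log2 change of at least 0.5 against WT. Of the 2 other lists, the called genes with the 4 largest changes were named. Gene totals, isoenzyme ratios and Hif1a were added after values were seen.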

Additional observations from a re-analysis of the deposited data

Results flagged for a closer look

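The knockouts share their WT samples, so differences between them were taken from direct contrasts in the same limma-trend fit. For these genes that contrast passed at an adjusted p under 0.05, with 2 samples a group. E3-KO lay below E1-KO on the log2 scale for Pdk1 (-1.39), Ldhb (-1.31), Aldoc (-1.23), Tpi1 (-1.12), Eno3 (-1.09), Slc16a3 (-1.07), Hk2 (-1.06), Eno2 (-0.75), Slc2a1 (-0.71), Pgk1 (-0.59) and Slc16a1 (-0.51), and among the other pathway genes for Pygb (-1.46) and Slc2a3 (-1.18). It lay above E1-KO for Fbp2 (3.03) and Slc5a1 (2.31).

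E3-KO lay below E2-KO for Ldhb (-1.13), Eno3 (-0.83), Hk2 (-0.79), Tpi1 (-0.73), Gapdh (-0.67), Slc16a1 (-0.65), Pdk1 (-0.61), Pygb (-0.74) and Slc2a3 (-1.12), and above it for Hk1 (0.55), Fbp2 (1.91) and Slc5a1 (0.99). Slc5a1 was also higher in E2-KO than in E1-KO (1.32). That call was lost with no filter (adjusted p = 0.0809) and with the pair alone (adjusted p = 0.0543). It was also lost without any 1 E1-KO or E2-KO sample (log2 changes of 1.18 to 1.46). Hk2, Tpi1, Eno2, Gapdh, Ldhb and Slc2a3 lie on chromosome 6, where the median of the 524 other genes was -0.58 for E3-KO against E2-KO and -0.59 against E1-KO.

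The second row of the Gys1 identifier, which the comparisons do not use, held a mean of 3.91 FPKM (E1-KO), 3.47 (E2-KO) and 3.5 (E3-KO), beside 0.530 in WT (n = 2 each).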

How the results depend on the processing

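Of the 36 members, 2 of 10 calls in E1-KO (Ldhb, Dlat), 3 of 14 in E2-KO (Pfkm, Pgk1, Ldhb) and 8 of 20 in E3-KO (Slc2a1, Pfkm, Tpi1, Pgk1, Ldhb, Pdk1, Dlat, Slc16a1) held under all 19 alternatives. With all samples kept, 5, 6 and 9 calls held under all 11 settings. With 1 sample left out, members called ranged from 2 to 11 in E1-KO, 4 to 17 in E2-KO, 10 to 21 in E3-KO, 4 to 13 for E3-KO against E1-KO and 4 to 8 for E3-KO against E2-KO, and were 0 throughout for E2-KO against E1-KO. All genes called then ranged from 2040 to 4671, 1870 to 4453 and 2828 to 5339 against WT, 2 to 261 for E2-KO against E1-KO, 1309 to 3276 for E3-KO against E1-KO and 974 to 1550 for E3-KO against E2-KO. For E2-KO against E1-KO, the count of all genes was 94 and became 1 with no filter, 58 with a mean of at least 5 FPKM, 31 with the replicate block and 1 with the pair alone. The count of members there was 0 and became 1 with a common total. For E3-KO against E2-KO, the count of all genes fell from 1754 to 672 with the pair alone, and the count of members was 8 and became 5 with quantile scaling, 2 with chromosome centring, 4 with no filter and 4 with the pair alone. The share of all called genes that were higher was 39.6%, 39.2% and 31.1% in E1-KO, E2-KO and E3-KO. It was 48.7%, 50.4% and 49.9% with median-ratio scaling, and 58.0%, 60.2% and 59.4% with chromosome centring. That centring left the median log2 change of all tested genes at 0.0605, 0.0596 and 0.0623. Median-ratio scaling left it at 0, -0.00449 and 0.00301. Chromosome centring also turned the direction of Gapdh in E3-KO to 0.18, Eno2 to 0.20, Tigar to 0.45, Rpia to 0.40 and Vhl to 0.0788. It turned Tigar to 0.41 against E1-KO and 0.30 against E2-KO, Rpia to 0.52 against E2-KO and Kdm3a to 0.37 against E2-KO. All these genes lie on chromosome 6, and the setting shifted every gene of that chromosome by the same amount within a sample. The turns of sign follow from that shift. Why chromosome 6 was lower in E3-KO was not tested. Samples with the same replicate number did not deviate together (correlations -0.04 to 0.09 over 6 pairs of groups, mean 0.00), so the numbers were not taken to pair them. With the replicate block, members called were 8 in E1-KO, 12 in E2-KO, 19 in E3-KO, 0 for E2-KO against E1-KO, 11 for E3-KO against E1-KO and 7 for E3-KO against E2-KO, and all genes called were 4056, 3854, 4808, 31, 2686 and 1526. Unknown depth and 2 samples a group limit the precision of all members.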
